A study of Homo sapiens with 6 samples.

Results

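The genes of the RNA interference machinery were followed in colorectal cancer cells after transfection of small interfering RNA (siRNA) against the long noncoding RNA GLCC1. They were DROSHA, DGCR8, XPO5, DICER1, TARBP2, PRKRA, AGO2, TNRC6A, TNRC6B and TNRC6C, chosen by symbol for their known place in the pathway. This choice was made with earlier results of these data known. Each had a row among the 56638 gene symbols of the count files. All 10 passed the filter on low counts, which left 23074 genes to be tested. A microRNA begins as a hairpin in a longer transcript, from which the nuclear Microprocessor, DROSHA with DGCR8, cuts out a precursor that XPO5 carries to the cytoplasm. There DICER1 and its RNA-binding partners TARBP2 and PRKRA cut the precursor to a short duplex, of which an Argonaute protein keeps a single strand. The Argonaute then recruits a GW182 protein (TNRC6A, TNRC6B or TNRC6C), which brings the enzymes that shorten the tail of the target mRNA and remove its cap, and a transfected siRNA uses the same Argonaute proteins.

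RNA sequencing was made of 6 libraries, 3 titled Control siRNA, from cells given a nonspecific siRNA, and 3 titled lncRNA-AF339830 siRNA, from cells given siRNA against GLCC1, which was first named AF339830. All 6 came from a colorectal cancer line grown in the same medium with serum, and neither the time of harvest nor whether the libraries came from separate cultures is given, so that p-values measure the spread between these libraries. The labels name the line SW480, whereas the study's methods name DLD-1. The genotype labels write siRNA1 for every library, whereas the titles number the libraries 1 to 3, and the study used more than 1 siRNA against GLCC1. Which of them was sequenced, and whether it was the same in all 3 libraries, is not given beyond these labels, so siRNA1 is assumed where a sequence is used. An effect of an siRNA sequence and an effect of less GLCC1 cannot be told apart.

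The labels also disagree on which libraries received which siRNA. Groups here follow the titles, source names and genotypes, but the library names in the description attach the control libraries to AF123 and the GLCC1 siRNA libraries to NC. If the library names hold, every direction below is the opposite one. GLCC1 itself has no row in the files, so its level could not be checked. FARP1, the protein-coding gene within whose bounds the siRNA1 target lies, was at 63.2 to 65.6 CPM, the counts of a gene scaled to a common library total, in the GLCC1 siRNA libraries and at 109 to 113 CPM in the control libraries. This is no check of GLCC1, since reads of a gene and of an RNA within it were not separated.

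Libraries held 11948790 to 19042516 read pairs assigned to genes. The second replicate of GLCC1 siRNA stood apart from the rest. It was the shallowest library, and its counts differed from those of the other GLCC1 siRNA libraries by 20.04 and 20.91 chi-square units per degree of freedom, against 2.005 to 4.467 for the other pairs within a group. Results are therefore also given without it where it mattered. Of 10 colon epithelial markers, 6 fell and 1 rose, where 31.6% of all genes tested changed and 16.7% fell (49.9% and 29.8% of genes reaching a mean of 10 CPM). The summed level of the markers was 2182 to 2502 CPM after GLCC1 siRNA against 4985 to 5406 CPM in controls. KRT8, the highest of them, went from a mean of 3584 CPM in controls to 1177 CPM, so the sum mostly follows KRT8. KRT20 was under 1 CPM in all 6 libraries. Of 8 markers of leukocytes, endothelium and fibroblasts, 5 had no count in any library and the summed level was 9.94 to 12.9 CPM against 15.8 to 18.1 CPM. All 10 interferon-induced genes on a list rose (median log2 fold change 2.71). The part of these shifts in the values of the RNA interference genes was not tested, and in such bulk RNA fewer cells of a kind and less RNA per cell cannot be told apart.

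The siRNA1 target, shown with the part that pairs with the start of the guide strand in capitals, is the sequence against which the words below were searched. The search assumes that siRNA1 was transfected, as the genotype labels read, and the words do not apply to libraries given another siRNA. It lies at chr13:99049528-99049546 on the plus strand of GRCh37.
siRNA1 target in GLCC1: ggaagagcaacACCTTGAA
Short words that pair with the start of an siRNA guide can occur by chance in the 3′ untranslated region (UTR) of other mRNAs, including those that encode the machinery. The words ACCTTGA and CCTTGAA, which overlap within ACCTTGAA, were searched on the mRNA strand of the 3′ UTR of the canonical transcript (GENCODE 44 on GRCh37). Among the 10 genes, 4 held a word, DICER1, TARBP2 and TNRC6B with 1 each and AGO2 with 2, and none held the full ACCTTGAA. The sites other than those of AGO2 are shown with 7 bases on either side, and the word is in capitals.
DICER1: aactgagACCTTGAtaccttt
TARBP2: ctgcctgCCTTGAAgctgaga
TNRC6B: ctcatggCCTTGAAatgtatt
The sites lie at chr14:95553310-95553330 (minus strand), chr12:53900051-53900071 (plus strand) and chr22:40727580-40727600 (plus strand) of GRCh37. A word stood in 20.2% of the 3′ UTRs of 13451 tested genes and in 54.7% of the 1676 that were at least 4000 bases long. Among the 9102 of these genes reaching a mean of 10 CPM the share was 22.3%. The 3′ UTR of DICER1 has 4271 bases, that of TNRC6B 12568 and that of TARBP2 284. That of AGO2 has 11889 bases, that of TNRC6A 2412, that of TNRC6C 3978 and that of DROSHA 939. Of the 3 genes that fell, DICER1 and TNRC6B held a word and TNRC6A did not. Of the 3 that rose, AGO2 held words and DROSHA and TNRC6C did not. A word is a description of the sequence, and pairing at these sites was not tested.

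Levels are given as CPM scaled by TMM (trimmed mean of M values, a scaling between libraries), and fold changes as GLCC1 siRNA over control siRNA, with adjusted p from the quasi-likelihood test of edgeR with Benjamini-Hochberg adjustment over all 23074 genes. Of the 10 genes, 3 rose (DROSHA, AGO2, TNRC6C), 3 fell (DICER1, TNRC6A, TNRC6B), and 4 did not pass the test (DGCR8, XPO5, TARBP2, PRKRA). The share of all genes tested that passed was 31.6%, with 14.9% higher and 16.7% lower (3429 and 3864 genes). With library totals as the only scaling, 4735 genes were higher and 2797 lower, since that scaling moved the median log2 fold change of all genes from 0.03 to 0.15, and the same 6 of the 10 genes passed in the same directions. All 10 were well expressed, with means over all libraries from 29.8 CPM for TARBP2 to 158 CPM for TNRC6A, and among the 10378 tested genes whose mean reached 10 CPM the share was 49.9%, with 20.1% higher and 29.8% lower. The count of 6 in 10 is thus near that of genes of like level and is not by itself a result about the machinery. The same holds for the median log2 fold change, which was -0.07 over the 10 genes, -0.07 over genes with at least 10 CPM and 0.03 over all genes tested. The groups did not overlap in 6 of the 10 genes, against 63.9% of the genes with at least 10 CPM. What follows therefore concerns which genes moved and by how much.

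**Figure D1:**
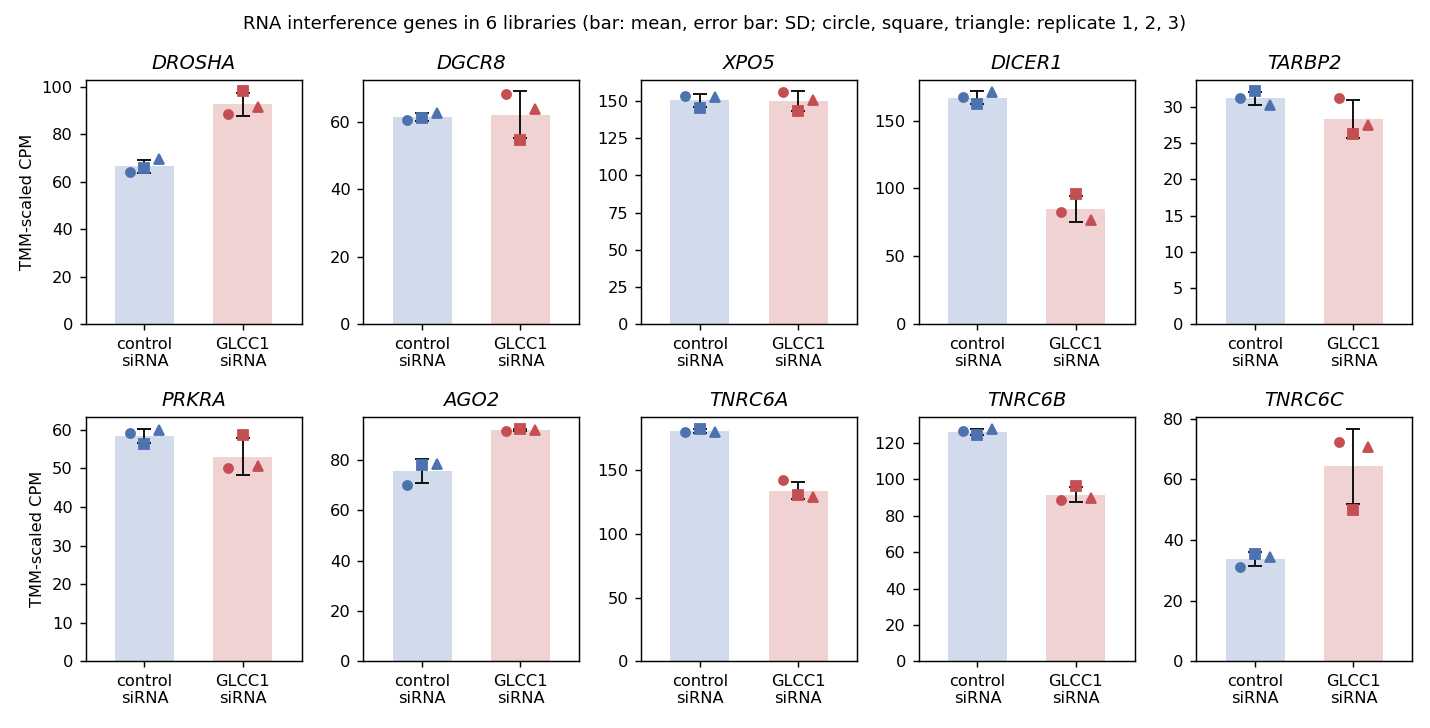
TMM-scaled CPM (y axis, from 0) of the 10 RNA interference genes in the 3 control siRNA and 3 GLCC1 siRNA libraries (x axis). Bars are means, error bars are SD, and circles, squares and triangles are replicates 1, 2 and 3. DICER1 sits at 162 to 171 CPM in the controls and at 77.0 to 95.7 CPM after GLCC1 siRNA, whereas the points of XPO5 overlap.

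DICER1, the enzyme that makes the microRNA duplex, fell to about 0.509 of its control level. It was at 168, 162 and 171 CPM in the control libraries and at 82.4, 95.7 and 77.0 CPM after GLCC1 siRNA. Every GLCC1 siRNA library was below every control library. The mean went from 167 ± 4.58 CPM (SD, n = 3) to 85.0 ± 9.63 CPM (SD, n = 3), a log2 fold change of -0.98 ± 0.093 (SE; adjusted p 4.41e-06 with edgeR). In the main fit of all 6 libraries this was the change of the largest size among the 10 genes, but the rank depended on the processing. With library totals as the only scaling the change of TNRC6C was larger (1.06, against -0.85 for DICER1). The same held with at least 10 counts required of every library (0.97 against -0.94). It also held without the second GLCC1 siRNA replicate. That replicate was the closest of its group to the controls, and without it the log2 fold change of DICER1 was -1.06 and that of TNRC6C 1.09. The gene lies at chr14:95552565-95624347 on the minus strand of GRCh37, and 0.361% of its exon bases overlap DICER1-AS1 on the other strand. The library kit does not mark strand, so reads of the pair cannot be told apart there. Counting without strand gives reads that fall on both genes to neither. The antisense gene was at 6.72 to 6.94 CPM in controls and at 10.4 to 13.03 CPM after GLCC1 siRNA, a change in the opposite direction (log2 fold change 0.74, edgeR adjusted p 0.000797).

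The double-stranded RNA-binding partners of DICER1 did not pass the test. TARBP2, which helps load the duplex into an Argonaute, was at 31.2, 32.2 and 30.4 CPM in controls and at 31.3, 26.3 and 27.5 CPM after GLCC1 siRNA, and the groups overlapped (log2 fold change -0.14 ± 0.10 SE, edgeR adjusted p 0.333). PRKRA, known also as an activator of the double-stranded RNA kinase PKR, was at 59.2, 56.4 and 59.8 CPM in controls and at 50.1, 58.5 and 50.5 CPM after GLCC1 siRNA (log2 fold change -0.14 ± 0.093 SE, edgeR adjusted p 0.275). Only the second GLCC1 siRNA replicate of PRKRA lay among the controls, and without it PRKRA was lower at a log2 fold change of -0.21 (edgeR adjusted p 0.00516), which brought the genes called to 7. The log2 ratio of DICER1 to TARBP2 counts was 2.42 ± 0.082 (SD, n = 3) in controls and 1.58 ± 0.25 (SD, n = 3) after GLCC1 siRNA. That of DICER1 to PRKRA was 1.51 ± 0.010 and 0.68 ± 0.061 (SD, n = 3 each). These ratios need no scaling between libraries, and in both the groups did not overlap (exact permutation p 0.1, two-sided). The smallest p that 3 against 3 allows is 0.1, which 16 of the 19 ratios, shares and sums computed reached, giving 0.119 after Benjamini-Hochberg adjustment.

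The Microprocessor genes parted. DROSHA, the nuclear ribonuclease, was at 64.2, 65.8 and 69.4 CPM in controls and at 88.5, 98.0 and 91.2 CPM after GLCC1 siRNA. All GLCC1 siRNA libraries lay above all controls, and the mean went from 66.4 ± 2.66 to 92.6 ± 4.87 CPM (SD, n = 3 each), a log2 fold change of 0.48 ± 0.086 (SE; edgeR adjusted p 0.000764). DGCR8, its RNA-binding partner, was at 60.6, 61.3 and 62.8 CPM in controls and at 68.2, 54.6 and 63.8 CPM after GLCC1 siRNA. The second GLCC1 siRNA replicate was the lowest of all and the first the highest, so the groups overlapped (log2 fold change 0.02 ± 0.097 SE, edgeR adjusted p 0.903). DROSHA lies at chr5:31400601-31532303 (minus strand) and DGCR8 at chr22:20067744-20099400 (plus strand) of GRCh37. The log2 ratio of DROSHA to DGCR8 counts was 0.08, 0.10 and 0.14 in controls and 0.38, 0.84 and 0.52 after GLCC1 siRNA, with no overlap (exact permutation p 0.1, two-sided). The log2 ratio of DICER1 to DROSHA, the paired ribonucleases of the pathway, went from 1.33 ± 0.048 to -0.13 ± 0.11 (SD, n = 3 each). Raw counts of DROSHA exceeded those of DICER1 in all 3 GLCC1 siRNA libraries and in no control, but counts also reflect gene length. Per kilobase of annotated exons, DROSHA was already above DICER1 in every control library (means 8.54 and 7.53 CPM per kilobase).

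DGCR8 is also a host of microRNA hairpins, which the Microprocessor cuts in the DGCR8 mRNA itself. Their mature sequences from RefSeq (GRCh38.p14) are shown with the seed, bases 2 to 8, in capitals, and no seed is shared among them.
hsa-miR-3618: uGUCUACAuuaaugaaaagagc
hsa-miR-1306-5p: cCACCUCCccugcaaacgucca
hsa-miR-1306-3p: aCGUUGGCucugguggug
The rows of MIR3618 and MIR1306 held 0 counts in all 6 libraries. These hairpins lie within exons of DGCR8 on the same strand, where reads that fall on both genes were given to neither, so the zeros say nothing of the microRNAs. In all, 2.40% of the exon bases of DGCR8 overlap these hairpins and TRMT2A on the other strand, and TRMT2A did not pass the test (log2 fold change -0.07, edgeR adjusted p 0.671).

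XPO5, the exporter of precursors, stayed within the spread of the libraries. It was at 154, 145 and 153 CPM in controls and at 156, 143 and 151 CPM after GLCC1 siRNA. The groups overlapped fully, and the log2 fold change was -0.0040 ± 0.079 (SE; edgeR adjusted p 0.978), whose sign turned under other scalings. The gene lies at chr6:43490072-43543775 (minus strand) of GRCh37. POLR1C, which covers 4.10% of the exon bases of XPO5 from the other strand, was lower after GLCC1 siRNA (log2 fold change -0.64, edgeR adjusted p 0.000996).

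AGO2, the Argonaute able to cut its target, rose slightly. It was at 70.0, 78.0 and 78.5 CPM in controls and at 91.4, 92.3 and 91.8 CPM after GLCC1 siRNA. The groups did not overlap, and the log2 fold change was 0.28 ± 0.085 (SE; edgeR adjusted p 0.021). This call rested on each control library. The edgeR adjusted p was 0.134 without the first control replicate, 0.0585 without the second and 0.0623 without the third, with log2 fold changes from 0.23 to 0.31.

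The other Argonaute genes moved in different directions. AGO1, which silences its targets mainly without cutting them, was at 118, 110 and 110 CPM in controls and at 61.3, 69.6 and 61.4 CPM after GLCC1 siRNA, below every control (log2 fold change -0.82 ± 0.088 SE, edgeR adjusted p 1.21e-05). AGO4 was at 39.4, 35.7 and 36.4 CPM in controls and at 54.6, 60.9 and 54.5 CPM after GLCC1 siRNA, above every control (log2 fold change 0.61 ± 0.093 SE, edgeR adjusted p 0.000226). AGO3 was at 58.3, 59.6 and 62.3 CPM and at 55.8, 65.1 and 52.7 CPM, overlapping between the groups (log2 fold change -0.06 ± 0.098 SE, edgeR adjusted p 0.705). These 3 genes follow each other on the plus strand of chromosome 1 of GRCh37, AGO4 at chr1:36273617-36323491, AGO1 at chr1:36335409-36396133 and AGO3 at chr1:36396319-36538101. Neighbouring genes of the same family and strand thus rose, fell and did not pass the test. The search for the guide words found 2 in the 3′ UTR of AGO1, which fell, 1 in that of AGO3, which did not pass the test, and none in that of AGO4, which rose. These sites lie at chr1:36386969-36386989, chr1:36387931-36387951 and chr1:36537574-36537594.
AGO1, upstream site: ctgttggCCTTGAAgcaagca
AGO1, downstream site: taccccgACCTTGAgattatt
AGO3: ttaaactCCTTGAAgattata
Both genes have long 3′ UTRs, of 10926 and 16756 bases, and of the tested genes with at least 4000 bases, 54.7% held a word.

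Summed over the family, Argonaute expression was 286, 284 and 288 CPM in controls and 263, 288 and 261 CPM after GLCC1 siRNA, and the groups overlapped (exact permutation p 0.4, two-sided). Within that sum the make-up shifted. AGO1 held 41.3%, 38.9% and 38.4% of the Argonaute counts in controls and 23.3%, 24.2% and 23.6% after GLCC1 siRNA. The share of AGO2 went from 26.4% ± 1.67 to 34.0% ± 1.71 and that of AGO4 from 13.01% ± 0.667 to 20.9% ± 0.196 (SD, n = 3 each), none overlapping between groups (exact permutation p 0.1 each). The share of AGO3 was 21.03% ± 0.627 and 21.4% ± 1.19 (SD, n = 3 each; exact permutation p 0.7). AGO1 was the Argonaute with the most counts in all 3 control libraries and AGO2 in all 3 GLCC1 siRNA libraries. A share of counts also reflects gene length, so it ranks reads and not molecules. Per kilobase of annotated exons, AGO1 was the highest Argonaute gene in every control library (mean 8.04 CPM per kilobase). After GLCC1 siRNA, AGO4 and not AGO2 was the highest in every library (means 7.64 and 5.80 CPM per kilobase).

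**Figure D2:**
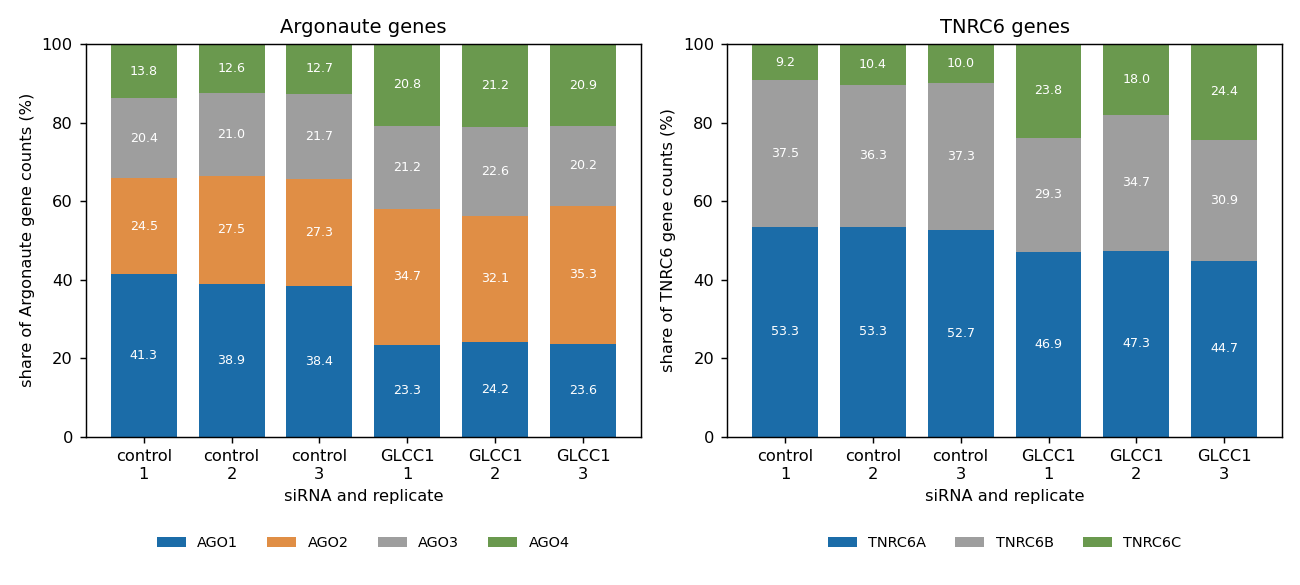
Share in percent (y axis) of the counts of the 4 Argonaute genes (left) and of the 3 TNRC6 genes (right) held by each gene in each of the 6 libraries (x axis, siRNA and replicate). The share of AGO1 is 38.4% to 41.3% in controls and 23.3% to 24.2% after GLCC1 siRNA, and that of TNRC6C is 9.19% to 10.4% and 18.0% to 24.4%.

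The GW182 genes, scaffolds between Argonaute and the deadenylases, also parted. TNRC6A was at 180, 183 and 180 CPM in controls and at 142, 131 and 129 CPM after GLCC1 siRNA. All GLCC1 siRNA libraries were below all controls (log2 fold change -0.43 ± 0.079 SE, edgeR adjusted p 0.000881). TNRC6B was at 126, 124 and 128 CPM in controls and at 88.6, 96.2 and 89.6 CPM after GLCC1 siRNA, again with no overlap (log2 fold change -0.46 ± 0.080 SE, edgeR adjusted p 0.00059). The log2 ratio of TNRC6A to TNRC6B counts was 0.52 ± 0.030 in controls and 0.55 ± 0.12 after GLCC1 siRNA (SD, n = 3 each), overlapping between the groups (exact permutation p 0.8, two-sided).

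TNRC6C went the other way. It was at 31.0, 35.5 and 34.3 CPM in controls and at 72.2, 49.9 and 70.6 CPM after GLCC1 siRNA. Every GLCC1 siRNA library was above every control, but the second replicate was much nearer to them than the others, and the spread after GLCC1 siRNA was the widest of the 10 genes (33.6 ± 2.36 and 64.2 ± 12.4 CPM, SD, n = 3 each). The log2 fold change was 0.94 ± 0.13 (SE; edgeR adjusted p 0.000108) and 1.09 without the second GLCC1 siRNA replicate. TNRC6C lies at chr17:75954785-76104903 (plus strand) of GRCh37, and 12.3% of its exon bases overlap TMC6 on the other strand, so its counts are less certain than those of the other members. TMC6 was at 170 to 204 CPM in controls and at 121 to 170 CPM after GLCC1 siRNA and did not pass the test (log2 fold change -0.26, edgeR adjusted p 0.117).

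Summed over the 3 genes, GW182 expression was 337, 343 and 342 CPM in controls and 303, 277 and 290 CPM after GLCC1 siRNA, with no overlap (exact permutation p 0.1, two-sided). The share of TNRC6C in the counts went from 9.87% ± 0.613 to 22.1% ± 3.53, that of TNRC6A from 53.1% ± 0.385 to 46.3% ± 1.39 and that of TNRC6B from 37.0% ± 0.633 to 31.6% ± 2.81 (SD, n = 3 each). TNRC6A held the largest share in all 6 libraries.

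**Figure D3:**
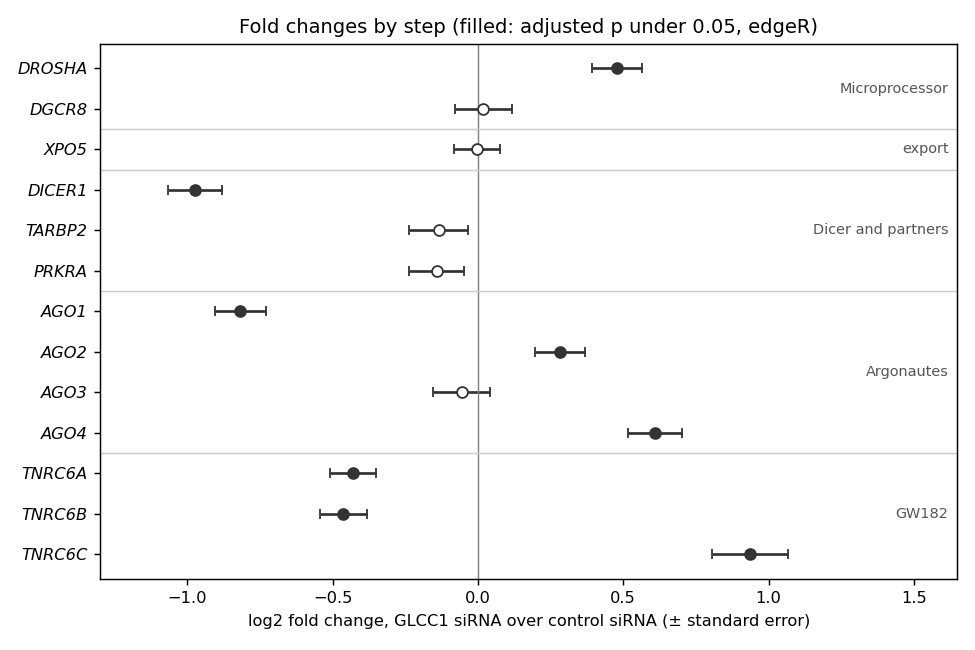
Log2 fold change of GLCC1 siRNA over control siRNA with its standard error (x axis) for the 10 RNA interference genes and AGO1, AGO3 and AGO4 (y axis), ordered by step. Filled points have an edgeR adjusted p under 0.05 and open points do not, and the range runs from -0.98 for DICER1 to 0.94 for TNRC6C.

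Divided by the length of the annotated exons, the levels could be ordered between genes. In controls XPO5 was the highest at 17.8 CPM per kilobase, followed by TNRC6A at 13.9. DROSHA at 8.54 and DGCR8 at 8.40 came next and overlapped between libraries, as did TARBP2 at 7.64 and DICER1 at 7.53. Below them were TNRC6B at 6.31, PRKRA at 4.85 and AGO2 at 4.77, of which the last pair overlapped, and TNRC6C was the lowest member at 2.89 CPM per kilobase. After GLCC1 siRNA, XPO5 stayed the highest at 17.7, DROSHA at 11.9 stood above TNRC6A at 10.3, and DICER1 at 3.84 CPM per kilobase was the lowest of the 10 on average, although its libraries overlapped those of PRKRA and TNRC6C. The lengths count every exon of GENCODE 44, a newer annotation than that of the counts, which lowers the level of genes with many annotated isoforms such as PRKRA and DICER1.

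The 5 genes whose levels followed those of DICER1 most closely across the 6 libraries, by the root mean square difference of centred log2 CPM among 10376 genes, were THUMPD1, NAT14, OSBPL3, CAST and TCTN3, with differences from 0.026 to 0.039. THUMPD1, an RNA-binding adaptor for tRNA acetylation, was at 91.9, 89.1 and 89.7 CPM in controls and at 44.2, 51.2 and 42.4 CPM after GLCC1 siRNA. CAST, the calpain inhibitor calpastatin, was at 181, 181 and 182 CPM and at 89.6, 99.6 and 86.8 CPM. They were chosen for this likeness over the same libraries, so their pattern is a description.

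The other genes of the pathway were followed in 8 lists of 84 symbols, of which 82 were in the files and 76 were tested. Of these, 14 rose, 19 fell and 43 did not pass the test (median log2 fold change -0.01, against 0.03 over all genes tested). These 33 of 76 lie between the 31.6% of all genes tested and the 49.9% of genes reaching 10 CPM that passed, and the counts of single lists below, some of only a few genes, are read against the same shares. Without the second GLCC1 siRNA replicate 46 passed, as calls over all genes also rose, from 7293 to 9920. Among 8 cofactors of the Microprocessor and of nuclear export, 2 rose, 1 fell and 5 did not pass the test (median 0.03). RAN, the GTPase that XPO5 binds together with its cargo, was at 449, 407 and 457 CPM in controls and at 286, 273 and 286 CPM after GLCC1 siRNA (log2 fold change -0.63, edgeR adjusted p 3.87e-05). The RNA helicase DDX5, a Microprocessor cofactor, and XPO1, the general exporter of nuclear proteins, rose by 0.34 and 0.33 on the log2 scale (edgeR adjusted p 0.0087 and 0.0165). The call of DDX5 was lost without the second control replicate (edgeR adjusted p 0.0619), and that of XPO1 without any of the control replicates (edgeR adjusted p 0.0514, 0.0921 and 0.0595). Without the second GLCC1 siRNA replicate, the highest library of both genes, the rises were smaller at 0.25 and 0.22, and both calls were kept.

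Among 10 genes of Dicer partners, loading and recycling, 2 rose, 5 fell and 3 did not pass the test (median -0.29). With 10 genes, 7 calls beside a share of 49.9% among genes reaching 10 CPM are given as a count and not as a result about this list. TSN, translin, which with its partner TSNAX removes the nicked passenger strand, was at 173, 153 and 162 CPM in controls and at 74.5, 84.9 and 78.0 CPM after GLCC1 siRNA, and no library overlapped (log2 fold change -1.04, edgeR adjusted p 1.58e-06). The RNA kinase CLP1 and the exporter XPO4 fell by 0.73 and 0.55 on the log2 scale, and FMR1, an RNA-binding protein found with Argonaute, rose by 0.69.

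Among the 10 tested of 11 regulators of microRNAs and their precursors, 3 fell and 7 did not pass the test (median 0.03). These were PAPD4, a poly(A) polymerase that extends microRNA ends (log2 fold change -0.82, edgeR adjusted p 2.89e-05), ZSWIM8, a ubiquitin ligase subunit of target-directed microRNA decay (-0.72, adjusted p 0.000489) and ZCCHC6, a terminal uridylyltransferase (-0.41, adjusted p 0.00579).

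Downstream of GW182, 18 genes of the CCR4-NOT and PAN deadenylases and their adaptors were tested, of which 3 rose, 6 fell and 9 did not pass the test (median -0.03). CNOT1, the scaffold of CCR4-NOT to which GW182 proteins bind, was at 532, 538 and 558 CPM in controls and at 367, 363 and 367 CPM after GLCC1 siRNA (log2 fold change -0.57, edgeR adjusted p 4.69e-05). No library overlapped between the groups. Of the exon bases of CNOT1, 12.5% overlap a gene on the other strand, as do 11.1% of those of TOB1 and 11.9% of those of CLP1 and of ZSWIM8. The counts of these genes carry the same limit as those of TNRC6C. The paralogous adaptors TOB1 and TOB2 went in opposite directions, TOB1 by -0.62 (edgeR adjusted p 0.00012) and TOB2 by 0.81 (edgeR adjusted p 1.08e-05) on the log2 scale. The adaptor BTG2 and the PAN subunit PAN3 rose by 0.49 and 0.30, and CNOT11 fell by 0.50 on the log2 scale. The call of PAN3 was lost without any of the control replicates (edgeR adjusted p 0.0958, 0.102 and 0.0909). Without the second GLCC1 siRNA replicate the rise of PAN3 was smaller at 0.20, and its call was kept.

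Of 15 genes of decapping and decay, 3 rose, 2 fell and 10 did not pass the test (median -0.02). DCP2, the decapping enzyme, was at 90.0, 83.7 and 83.6 CPM in controls and at 167, 239 and 170 CPM after GLCC1 siRNA, above every control (log2 fold change 1.16, edgeR adjusted p 1.22e-05). PATL1, which links deadenylation to decapping, rose by 0.90 and the enhancer of decapping EDC3 by 0.39, while the decapping scaffold EDC4 fell by 0.83 and AJUBA, a LIM domain protein of the same bodies, fell by 0.45 on the log2 scale. The call of EDC3 was lost without control replicate 1 or 3 (edgeR adjusted p 0.0808 and 0.0602) and without GLCC1 siRNA replicate 1 or 3 (edgeR adjusted p 0.0515 and 0.0621). In addition, 13.8% of the exon bases of EDC3 overlap CLK3 on the other strand.

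**Figure D4:**
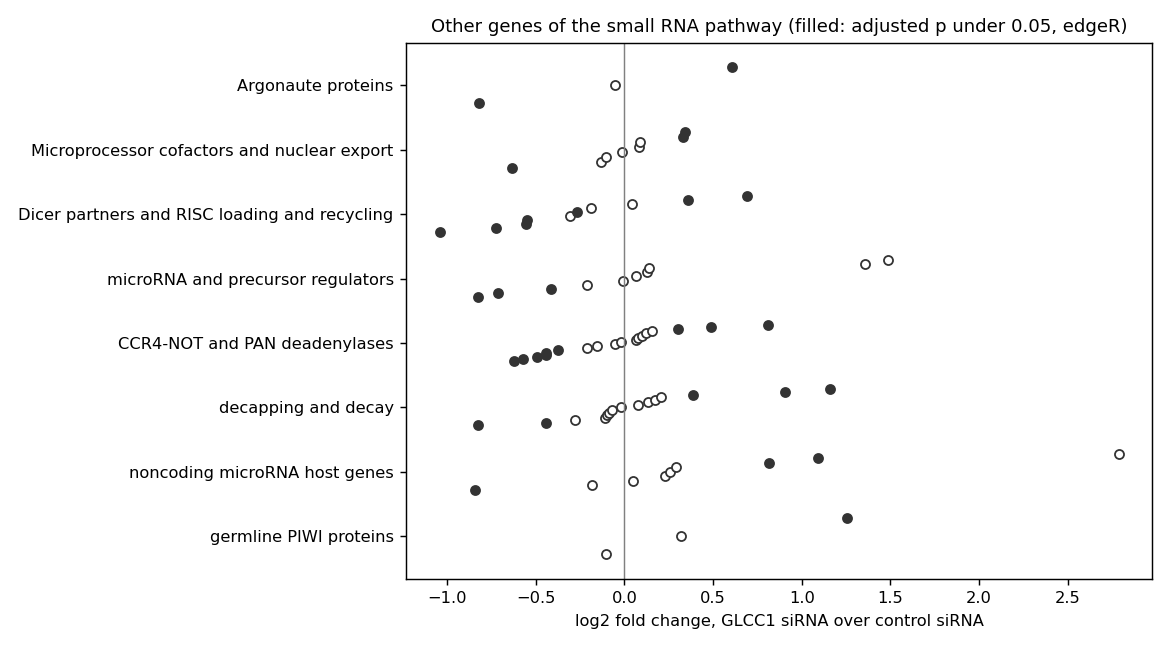
Log2 fold change of GLCC1 siRNA over control siRNA (x axis) for the 76 tested genes of 8 further lists of the small RNA pathway (y axis), 1 point a gene, spread vertically in order of fold change within each list. Filled points, 14 higher and 19 lower, have an edgeR adjusted p under 0.05, and the open point at the far right is a host gene with few counts.

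Host genes from which microRNAs are cut were measured in part. Of 15 noncoding hosts 13 were in the files and 9 were tested, of which 2 rose, 1 fell and 6 did not pass the test (median 0.26). MIR17HG, host of the miR-17-92 cluster, was at 5.55, 5.40 and 4.396 CPM in controls and at 10.6, 12.96 and 9.34 CPM after GLCC1 siRNA, above every control (log2 fold change 1.09, edgeR adjusted p 0.000163). MIR503HG rose by 0.82 and MIR22HG, host of miR-22, fell by 0.84 on the log2 scale. A host transcript is what DROSHA cuts, so its level need not follow that of the microRNA. The main mature sequences of the MIR17HG cluster from RefSeq (GRCh38.p14) are shown with the seed in capitals, because their shared seeds group them.
hsa-miR-17-5p: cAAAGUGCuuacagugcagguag
hsa-miR-20a-5p: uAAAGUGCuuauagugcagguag
hsa-miR-18a-5p: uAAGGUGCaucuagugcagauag
hsa-miR-19a-3p: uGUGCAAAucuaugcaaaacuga
hsa-miR-19b-3p: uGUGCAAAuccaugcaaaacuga
hsa-miR-92a-3p: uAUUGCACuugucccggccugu
The seeds of miR-17-5p and miR-20a-5p are the same, as are those of miR-19a-3p and miR-19b-3p. Levels of mature microRNAs were not measured. Rows of 1244 microRNA hairpin genes were matched to RefSeq symbols, and they hold fragments of longer transcripts. Of these 139 were tested, and 6 rose and 3 fell, a smaller share than the 31.6% of all genes tested, but only 3 of these rows reached a mean of 10 CPM. Their summed level was 217, 218 and 225 CPM in controls and 221, 243 and 219 CPM after GLCC1 siRNA, with overlapping groups (exact permutation p 0.5, two-sided).

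Of 4 germline PIWI genes, which act on another class of small RNA, 3 were tested, 1 rose and 2 did not pass the test (median 0.32). PIWIL2 was at 1.23, 1.05 and 0.903 CPM in controls and at 2.45, 2.70 and 2.46 CPM after GLCC1 siRNA (log2 fold change 1.25, edgeR adjusted p 0.0012), a low level beside that of the Argonaute genes.

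The canonical E-box CACGTG, a binding word of c-Myc, the transcription factor that the study connects with GLCC1, was searched on the promoters of AGO1, AGO3, AGO4 and the 10 genes other than AGO2, from 250 bases before to 50 bases after the start site (RefSeq, GRCh38.p14). A single start site was searched for each gene, so promoters at other start sites were left out. The word reads the same on both strands. It stood in none of these 12 promoters and in 7.43% of 27305 promoters of the same length, which says only that these letters are not in these windows.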

How the data were processed

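RNA of 6 libraries of a colorectal cancer cell line was sequenced, 3 per siRNA. The authors deposited, for each library, a table of symbols with raw counts of read pairs that had not been normalized. According to the study's methods and the submitters' processing notes, reads were mapped to hg19 (GRCh37) with TopHat2 version 2.0.11 and counted with HTSeq in union mode, whose version is not given in the sources used here. The library kit does not mark strand. The tallies of read pairs given to no gene stayed out of library sizes and tests, and those on no annotated gene came to between 11.2% and 14.2% of the read pairs in a library.

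A gene was kept if its counts in either condition summed to at least 5, which is the filter of the study. Counts were scaled by TMM (factors 0.950 to 1.05) and tested with the robust quasi-likelihood fit of edgeR 4.0.16 in R 4.3.3, without covariates, with Benjamini-Hochberg adjustment and a threshold of 0.05. Standard errors given for edgeR are the size of the log2 fold change divided by the square root of its F statistic. They thus follow from the test and were not estimated apart from it. The study used DESeq2, which was an alternative here (1.42.0). Data were simulated at the means of the 23074 genes, with changes given to 200 genes that averaged 10 CPM or more. There edgeR recovered 100 of 100 genes changed by 1 and 69 of 100 changed by 0.5 on the log2 scale. All had the right sign, and 15 of its 184 calls were false. Far fewer genes changed than in the real data and no library was made to stand apart, so recovery in the real data can differ.

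Shares, ratios and sums of single libraries were compared with the exact permutation test over the 20 splits of 3 against 3. Other alternatives were DESeq2 size factors in edgeR, library totals as the only scaling, a filter of 1 count in any library, at least 10 counts required of every library, a replicate block and each library left out in turn. Leaving out libraries for the shares of TNRC6C and AGO1 was chosen after seeing the data. The 10 genes and all lists were chosen with earlier results of these data known, and no list was tested as a set. Named were all 10 genes, AGO1, AGO3 and AGO4, from every other list up to 3 genes with the largest rise and up to 3 with the largest fall among those that passed the test, averaged 1 CPM or more and did not overlap between groups, and the 5 genes most like DICER1 among those that averaged 10 CPM or more. DICER1-AS1, TMC6, POLR1C, TRMT2A and FARP1 were named for their position, and KRT8 and KRT20 after their values were seen. Positions, exons and 3′ UTRs came from GENCODE 44 mapped to GRCh37, promoters and microRNAs from RefSeq (GRCh38.p14), read with Python 3.11.15 and pandas 2.3.3, exact tests ran in scipy 1.17.1, and plots used matplotlib 3.10.9. The target of siRNA1 was read from the genome.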

Additional observations from a re-analysis of the deposited data

Results flagged for a closer look

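Read pairs on no annotated gene, which enter no comparison above, made up 12.7%, 14.2% and 12.49% of the read pairs in GLCC1 siRNA replicates 1, 2 and 3, in each case above the 11.2% to 11.54% of the control siRNA libraries. The second replicate, which has the highest of these shares, is the library that stood apart from its group. Such reads lie outside annotated exons, so they add nothing to the counts of DICER1 or the other genes of the pathway, and what they hold was not tested.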

How the results depend on the processing

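The same 6 of the 10 genes passed the test with DESeq2, with DESeq2 size factors, with library totals and with both other filters. Leaving out 1 library gave 5 to 7, and the wider lists then held 27 to 46 genes that passed, against 33, as calls over all genes ran from 5221 to 9920, against 7293. DICER1, DROSHA, TNRC6A, TNRC6B, TNRC6C, AGO1 and AGO4 kept direction and call in all 12 alternatives. The correlation of deviations was -0.29 to -0.0081 over 14875 genes in 3 same-numbered pairs, and -0.24 to 0.25 in different-numbered pairs across the groups. Because a library stood apart in groups of only 3, these values cannot decide whether the replicate numbers pair the libraries. With the replicate block 5 of the 10 genes passed, since AGO2 had a log2 fold change of 0.28 and an adjusted p of 0.0654, and 31 of the wider lists did, PAN3 not among them. Among log2 fold changes of single genes 441 kept their direction and side of the threshold, 16 lost the call, 1 gained it and 10 changed sign, all 10 of genes that never passed the test. The log2 fold change of XPO5, -0.0040, became 0.0078 with DESeq2, 0.0075 with DESeq2 size factors, 0.12 with library totals and 0.034 with the filter of 10 counts, and that of AGO3, -0.06, became 0.068 with library totals. Without 1 library each, XPO5 ran from -0.030 to 0.033, DGCR8 from -0.049 to 0.11 and AGO3 from -0.14 to 0.010. The cause of these changes was not tested.

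Raw counts per library ran from 331 for TARBP2 to 3315 for TNRC6A. Standard errors of the log2 changes, from 0.079 for TNRC6A and XPO5 to 0.13 for TNRC6C, did not follow these counts alone. Changes as small as those of TARBP2 and PRKRA were not detectable over all 6 libraries, although PRKRA was called without GLCC1 siRNA replicate 2. The share of TNRC6C rose by 11.05 to 14.2 percentage points and that of AGO1 fell by 14.96 to 16.4 with each library left out.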
